A study of Mus musculus with 2 samples.

Results

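Distal accessible regions of mouse common myeloid progenitors that lie mostly in soft-masked sequence numbered 1300 of 51480 distal regions, and of 65789 regions in all on chromosomes 1 to 19. Soft-masking is the writing in lower case of reference bases that a masking program marked as repeated or low in complexity. A region was distal when its summit, the position of its strongest signal, lay over 1 kb from every start of a protein-coding transcript in GENCODE M21. It was mostly masked when over 50% of its bases were lower case in the GRCm38 (mm10) reference. The assay was ATAC-seq, which reads open chromatin from the places where a transposase could insert adapters. The cells were primary progenitors of C57BL/6J males of 5 to 6 weeks, with 50000 cells per library. There was 1 group of 2 libraries, labelled biological replicates 1 and 2, with neither a treatment nor a second cell type. Both libraries carry the same donor label, and separate animals are not mentioned, so differences between them may be technical. The p-values take regions as units within this pair of libraries and hold no estimate of the spread between libraries or animals. For replicate 1 the labels list 2 instruments, for replicate 2 they list none. The files hold peaks and no read counts, so depth is unknown, and intervals cover counting error over regions only.

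Common myeloid progenitors are bone marrow cells that give rise to granulocytes, monocytes, red cells and megakaryocytes. Of 18 regulators of blood stem cells and progenitors 17 had a region of the list within 1 kb of a start, as had 12 of 16 granulocyte-monocyte genes, 11 of 12 erythroid and 10 of 12 megakaryocyte genes. The counts were 4 of 10 for B cell genes, 5 of 12 for T and NK cell genes and 2 of 12 for genes of other tissues, where 62.0% of all protein-coding genes had one. An accessible start is not a measure of expression.

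Much of the mouse genome derives from retrotransposons, which spread as copies made from RNA. B1 and B2 elements are short interspersed elements of this kind, abundant in rodents, and the B2 family is known to have carried binding sites of CTCF to many places in the genome. CTCF is a zinc-finger protein that binds insulators and the bases of chromatin loops. Old copies diverge from each other by mutation, and most repeated DNA in blood cells is packed in closed chromatin.

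The lower-case bases are not a list of named elements, so the label of repeats was checked against sequence. Masked stretches of the reference had a median length of 29 bp, and 28.8% of the masked bases lay in stretches shorter than 50 bp. The longest masked stretch of the mostly masked regions had a median of 82 bp and reached 100 bp in 34.6%, which describes the set and is no check, since the rule used the same lower-case bases. Alignment between summit windows of the set does not use the case of the letters: 586 of the 1300 (45.1%) aligned with another over at least 100 bp at 75% identity or more. At 85% identity 38 (2.92%) did. Of the 50180 other distal regions 458 (0.913%) aligned with one of the 1300 at 75%. How many of the other distal regions align with each other was not tested, so the 45.1% has no matching share. The 586 fell into 33 groups, the largest of 355 regions and the second of 141. The remaining 714 aligned with no other of the 1300, so the set is described as mostly masked and not as annotated repeats.

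The largest sequence group carried CTCF sites of the form found in B2 elements, and the sequences of its strongest regions with such a site are given first because they show the shared site inside diverged copies. Of its 355 regions 218 had a match to that form within 50 bp of the summit, 61.4%. The group was spread over all 19 chromosomes, and the alignments that linked it had a median identity of 77.0%. These are the 5 strongest with a match, a number chosen after the values were seen, from the RefSeq sequence of GRCm38, with 30 bp each side and the CTCF match in capitals. Each is named by the nearest gene and printed along the strand of the match. Here and in the sequences after it lower case does not mark masking.
Bach1, chr16:87746875-87746946, forward strand: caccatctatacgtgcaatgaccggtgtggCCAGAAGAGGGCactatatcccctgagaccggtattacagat
Dock4, chr12:40680735-40680806, reverse strand: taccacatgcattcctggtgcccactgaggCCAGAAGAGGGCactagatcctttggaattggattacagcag
Ankrd46, chr15:36517977-36518048, reverse strand: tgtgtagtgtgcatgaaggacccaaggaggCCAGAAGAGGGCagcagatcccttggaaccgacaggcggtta
Abcb5, chr12:119026462-119026533, forward strand: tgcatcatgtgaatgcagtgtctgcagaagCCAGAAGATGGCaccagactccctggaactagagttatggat
Themis, chr10:28730311-28730382, reverse strand: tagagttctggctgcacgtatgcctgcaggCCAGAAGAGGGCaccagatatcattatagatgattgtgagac

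The strongest region of the group lay 48.0 kb from the start of Bach1, a transcriptional repressor regulated by heme, with a signal of 17.5 in the list of both replicates. Its signal was 16.1 in replicate 1 and 14.99 in replicate 2. Near Dock4 the values were 13.0 and 14.5, and near Ankrd46 14.5 and 10.8. The regions near Abcb5 (11.9 and 12.7) and Themis (12.04 and 11.6) came next. The median of the mostly masked regions was 6.72 in replicate 1 and 6.69 in replicate 2. All 5 lay above it in both libraries, which follows from choosing the strongest.

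Many regions of the second group had a site of PU.1, the ETS factor that drives myeloid differentiation. Of its 141 regions 79 (56.0%) had the PU.1 consensus GAGGAAGT within 50 bp of the summit, and none had the B2 form of the CTCF site. The site is also common in the genome's copies of this sequence. The region of the group with the most alignments had 3718 distal copies, and 1748 of them held the site. The median identity of its alignments was 77.5%. The 4 strongest with a match, again a number chosen after the values were seen, are printed in the same way with the PU.1 match in capitals. They show the site with the bases around it in each copy.
Rab39, chr9:53693898-53693965, reverse strand: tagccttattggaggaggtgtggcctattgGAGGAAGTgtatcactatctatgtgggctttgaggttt
Lrmp, chr6:145115535-145115602, forward strand: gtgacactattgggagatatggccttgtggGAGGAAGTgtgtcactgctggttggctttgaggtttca
Axin1, chr17:26168190-26168257, reverse strand: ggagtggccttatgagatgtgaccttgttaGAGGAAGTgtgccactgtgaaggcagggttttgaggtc
Spen, chr4:141552639-141552706, forward strand: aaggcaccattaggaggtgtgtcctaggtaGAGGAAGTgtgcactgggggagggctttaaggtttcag

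The region in an intron of Rab39 was the third strongest of all 1300, with a signal of 24.9, and it had 21.4 in replicate 1 and 20.97 in replicate 2. The region 6.13 kb from the start of Lrmp had 12.7 and 14.4. An intronic region of Axin1, a scaffold of the complex that degrades beta-catenin, had 12.05 and 13.7. Near Spen, a transcriptional repressor with RNA-binding domains, the values were 13.0 and 13.0. Each of the 4 passed the threshold in both libraries' own lists, which a choice by signal favours. Of the 267 mostly masked regions in the strongest tercile of distal regions by signal, 91.4% met the own list of replicate 1 and 73.4% that of replicate 2. Of the 16668 other distal regions in that tercile more did, 95.7% and 87.1%.

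The other groups were small, with 12, 7, 6 and 4 regions in the next largest. Their strongest regions are printed around the summit, on the forward strand and without capitals, because they show the kinds of sequence that the small groups share.
Group 3, near Lsm8, chr6:18812787-18812847: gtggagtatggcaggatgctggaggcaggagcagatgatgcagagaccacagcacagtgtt
Group 4, near Nbea, chr3:56575621-56575681: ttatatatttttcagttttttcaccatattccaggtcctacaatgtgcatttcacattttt
Group 5, near Ggh, chr4:20191871-20191931: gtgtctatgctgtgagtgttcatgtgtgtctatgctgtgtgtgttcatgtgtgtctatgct
Group 6, near Tbc1d21, chr9:58401837-58401897: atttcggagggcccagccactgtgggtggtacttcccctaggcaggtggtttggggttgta

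Groups 4 and 5 had median masked shares of 96.0% and 96.4% against 66.4% in the largest group. The sequence near Ggh, from a region masked over 65.9%, repeats a unit in tandem within the 61 bp shown. That unit is longer than the 6 bp counted next. Simple tandem repeats, units of up to 6 bp in at least 3 copies over at least 12 bp, covered 20% or more of the bases of 46 mostly masked regions (3.54%), against 0.201% of the other distal regions. Runs of CA lay within 100 bp of the summit in 7.92% against 2.55%, and runs of A in 8.92% against 2.93%. Such runs are nearly always masked, so these differences follow largely from the rule. Mostly masked tiles of the distal genome, 500 bp each, held CA runs within 100 bp of their centres in 4.62% and A runs in 7.67%. Here and below, tiles were searched around the centre over the same window as the summits, not over their whole length. The log2 odds ratio of the mostly masked regions to those tiles was 0.83 (0.54 to 1.12) for CA and 0.24 (−0.04 to 0.51) for A, an interval that holds 0.

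Masked sequence was scarce in the distal regions of the list. Whether short reads could be placed in masked sequence outside the list was not tested. Mostly masked regions made up 2.53% of distal regions (Wilson 95% interval 2.39 to 2.66). Of the 500 bp tiles of chromosomes 1 to 19 that lie as far from starts, 24.4% were mostly masked. Moving the same regions by 5 kb or 20 kb either way gave 17.4% to 18.7%. By bases, 12.5% of distal region sequence was masked against 33.5% of the chromosomes. The share ran from 1.39% on chromosome 18 (24 of 1723) to 2.92% on chromosome 6 (92 of 3147).

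**Figure D1:**
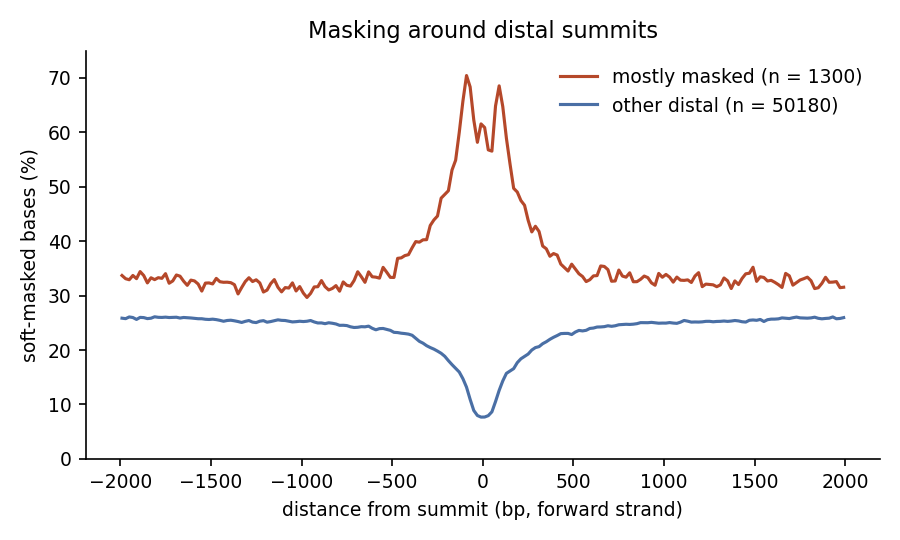
Share of soft-masked bases (vertical axis, percent) by distance from the summit (horizontal axis, bp), averaged in steps of 20 bp over the 1300 mostly masked regions (red) and the 50180 other distal regions (blue). Masking falls towards the summit in the other distal regions and rises above its surroundings in the mostly masked ones, with a dip at the summit itself.

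The plot of masking by distance describes the set. Within the width of a region the difference is fixed by the rule and is no finding: at 10 bp from the summit 60.9% of bases were masked in the mostly masked regions and 7.68% in the others. At 990 bp, outside most of the regions, the shares were 33.4% and 24.95%. The summit base itself was masked in 61.9% of the mostly masked regions.

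Mostly masked regions lay less often in exons and closer to starts than other distal regions, by intervals that do not overlap and without a test. Introns held 46% of the mostly masked regions and 46% of the others. Exons of protein-coding genes held 2.69% (1.94 to 3.72) against 5.18% (4.99 to 5.38), and 51.3% against 48.8% were intergenic. The median distance to a start was 17434 bp (95% interval 16239 to 19213) against 22896 bp (22525 to 23246), and 10.2% (8.70 to 11.997) against 14.7% (14.4 to 15.1) lay over 100 kb away. A start of a noncoding transcript lay within 1 kb of 3.85% against 5.24%. The mostly masked regions were less rich in G and C, with a median of 45.6% against 48.5%, and had 0.719 CpG per 100 bp against 1.28.

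The mostly masked regions were narrower and somewhat weaker than the other distal regions. Their median width was 278.5 bp (95% interval 273 to 283), against 461 bp, a log2 ratio of −0.73. Of the 1300, 471 fell among the narrowest decile of distal regions, which were at most 253 bp wide. The rule takes a share of bases, so a narrow region can pass it with less masked sequence than a wide one. Only 9% joined more than 1 peak, against 30.3%.

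Their median signal was 7.42 (95% interval 7.24 to 7.55) against 8.16 in the others, a log2 ratio of −0.14. Signal is the authors' value for a peak, on a scale that is not stated. Against the 8545 distal regions without any masked base, whose median signal was 7.48 and median width 355 bp, the log2 ratio was −0.01. The signal of the mostly masked regions ran from 1.95 to 45.6, and 36.2% lay above the median of all distal regions. Only 5.08% were among the strongest decile.

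At equal width the order of signal was not the same. Within deciles of distal regions by width, the median signal of the mostly masked regions was the higher one in 6 of 10. The mean difference of log2 signal within those deciles was 0.06, so its direction was turned. In the decile from 254 to 296 bp the medians were 7.91 for 283 mostly masked regions and 7.31 for 4913 others. In the decile from 457 to 514 bp they were 7.72 for 58 and 8.54 for 5099.

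The 379 regions with masked shares from 50.1% to 54.98% had a median signal of 7.66 and a median width of 298 bp, and 47.0% met the own list of replicate 1 and 29.6% that of replicate 2. The 526 regions from 45.02% to 50%, just outside the threshold, had 7.75 and 345 bp, with 53.0% and 35.9%.

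The strongest of the 1300 was also the strongest distal region of the list. It was intergenic, 260 bp wide, at chr2:69355472-69355731 and 13.0 kb upstream of Abcb11, the bile salt export pump of the liver. Its signal was 45.6 in the list of both replicates, 39.5 in replicate 1 and 42.3 in replicate 2, while no other distal region exceeded 35.2. It was masked over 53.1% of its bases, belonged to no sequence group and had none of the 16 factor motifs at its summit. The 61 bp around that summit are shown because no other distal region had so high a signal. None of these bases was masked, so the masked part of the region lay outside them.
Abcb11, chr2:69355571-69355631, forward strand: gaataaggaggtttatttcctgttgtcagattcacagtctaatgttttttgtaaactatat

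The other regions among the 10 strongest had signals from 18.2 to 25.5. All 10 were in both own lists, which a choice by signal favours. The second, with 25.5, was intergenic on chromosome 14, and its nearest start, that of Rpl36a-ps1, was 388 kb away. Near Nr4a2, an orphan nuclear receptor, the region had 19.5 in replicate 1 and 18.2 in replicate 2, at 808 kb from the start. Those near Fam72a (17.6 and 20.6) and Hunk (18.7 and 16.4) were intergenic. An intron of Skint3 held a region with 18.8 and 15.9. The last of the 10, nearest to Gm9733, had 15.1 and 17.3. The 61 bp around the summits near Nr4a2, Fam72a and Skint3 held no masked base. Those near Rpl36a-ps1, Hunk and Gm9733 held 33, 30 and 17. In none of the 10 did the libraries differ by more than 1.2 times.

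**Figure D2:**
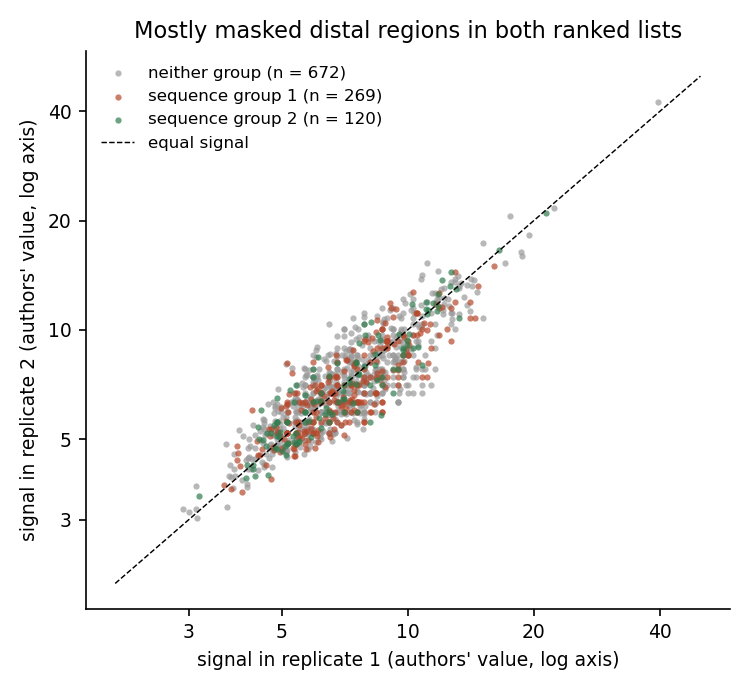
Authors' signal of the 1061 mostly masked regions in the ranked lists of both replicates, replicate 1 on the horizontal and replicate 2 on the vertical axis, both logarithmic. Points are regions, coloured by sequence group, and the dashed line marks equal signal. Both large groups run through the same range as the regions outside them, and the region near Abcb11 stands alone at the upper right.

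Signals of the replicates ranked alike. Over the 1061 regions found in both ranked lists, before any threshold, Spearman's rho was 0.831, against 0.886 over 46878 other distal regions. These correlations run across regions that share their libraries and carry no p. Medians over these regions were 6.96 in replicate 1 and 6.69 in replicate 2 for the mostly masked, and 7.54 and 7.61 for the others.

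Recurrence between libraries was lower for mostly masked regions. Each replicate has its own list, thresholded on the irreproducible discovery rate (IDR), a measure of how well peak ranks repeat. The same rule found 645 mostly masked regions in the own list of replicate 1, and 304 of them (47.1%, exact 95% interval 43.2 to 51.1) overlapped one of replicate 2, with 1 bp being enough. Over all distal regions of that list 67.5% did, and 67.9% of those not mostly masked. The odds ratio was 0.421 (95% interval 0.360 to 0.493; two-sided Fisher's exact test, Benjamini-Hochberg adjusted over 4 comparisons, adjusted p = 8.62e-27).

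In replicate 2 the own list held 383 mostly masked regions, and 316 (82.5%, 78.3 to 86.2) met a region of replicate 1, where 89.5% of all distal regions did. The odds ratio to the other distal regions was 0.547 (0.419 to 0.714; Fisher's exact test, adjusted p = 3.25e-05). Of the 1300 regions themselves, 577 (44.4%) met the own list of replicate 1, against 63.4% of all distal regions, with a ratio of odds of 0.451 (0.403 to 0.504; Fisher's exact test, adjusted p = 8.34e-45). In replicate 2, 340 (26.2%) did, against 49.3%, with a ratio of odds of 0.355 (0.313 to 0.402; Fisher's exact test, adjusted p = 3.65e-66). Regions are not independent replicates, so these p-values describe the lists of 2 libraries. Both own lists held 283 of the 1300, and 666 (51.2%) were in neither, against 31.2% of the other distal regions.

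Width moved with this difference. Pooled over deciles of width by the Mantel-Haenszel method, the odds ratio was 0.937 (0.833 to 1.05) for the mostly masked regions in replicate 1 and 0.849 (0.743 to 0.971) in replicate 2. For recurrence of replicate 1 it was 0.879 (0.746 to 1.04) and for that of replicate 2 0.888 (0.676 to 1.17). None of the 4 calls of Fisher's exact test was kept in this pooling, where the Mantel-Haenszel test gave adjusted p = 0.387, adjusted p = 0.0653, adjusted p = 0.268 and adjusted p = 0.434 in that order. Pooled over deciles of signal the 4 ratios were 0.361 to 0.570 and all passed. Among the narrowest decile, 26.5% of 471 mostly masked and 27.4% of 4697 other regions met replicate 1, and 10.2% and 10.8% met replicate 2. From 457 bp to 514 bp the shares in replicate 1 were 56.9% of 58 and 69.1% of 5099.

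**Figure D3:**
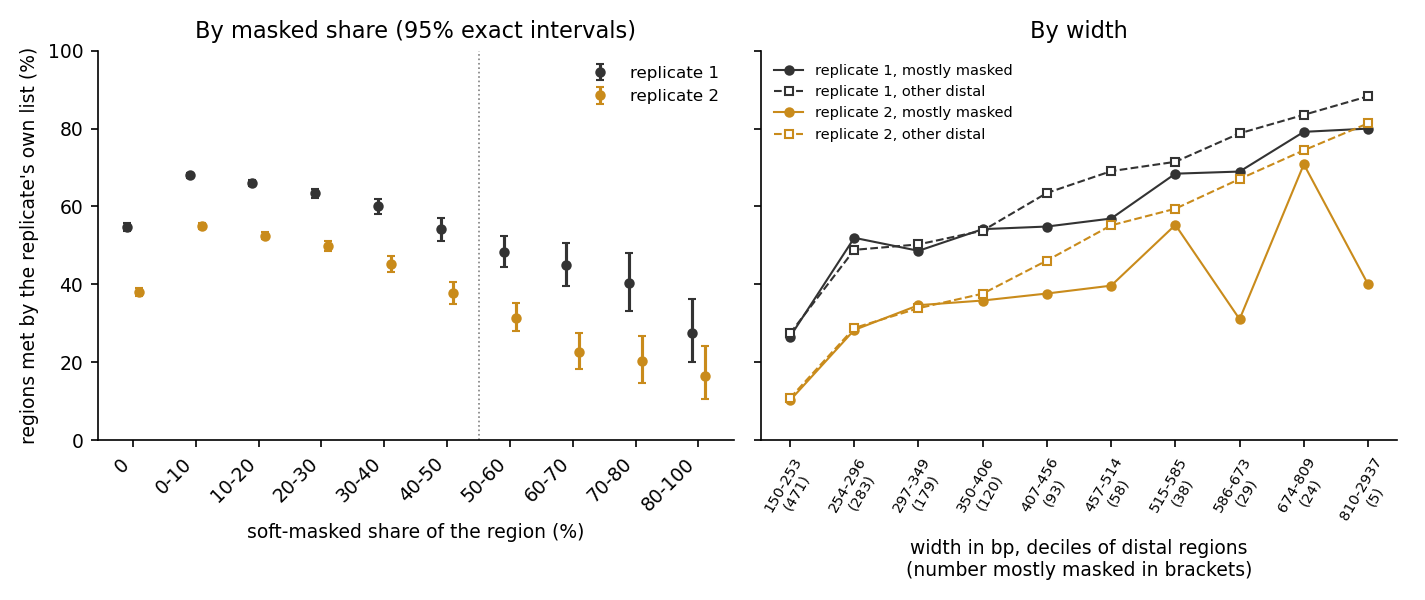
Share of distal regions met by each replicate's own list (vertical axis, percent). Left, by soft-masked share of the region, with exact 95% intervals and a dotted line at the threshold. Right, by deciles of width, filled points for mostly masked and open points for other distal regions. On the left the shares fall from the class of 0 to 10% to that of 80 to 100%, and on the right filled and open points lie together up to 406 bp.

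The plot of recurrence by masked share shows no step at 50%. In replicate 1 the share was 68.0% among regions masked up to 10%, 54.1% at 40 to 50%, 48.4% at 50 to 60% and 27.6% (20.01 to 36.2) above 80%. Regions with no masked base stood lower than the next class, at 54.7%. Median width fell over the same classes, from 517 bp up to 10% to 245 bp above 80%.

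CTCF sites of the B2 form set the mostly masked regions apart from the other distal regions more than any other of 16 factor motifs. A whole match on either strand within 50 bp of the summit was found in 357 of the 1300, 27.5% (Wilson 95% interval 25.1 to 30.0), and in 1114 of the 50180 others, 2.22% (2.09 to 2.35). The odds ratio was 16.7 (14.6 to 19.1), and in 330 of the 357 the match lay wholly in masked bases. Mostly masked tiles of the distal genome held it within 50 bp of their centres in 0.545%, other tiles in 0.101%. Flanks 500 bp from the mostly masked summits held it in 0.841%. The site is thus more frequent in masked sequence, so part of the difference to the other distal regions follows from the rule. The match was close to the summit: its centre lay within 20 bp in 72.3%, where an even spread over the window would give 45.6%. In the other distal regions 72.0% of the matches were as close.

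Against the other distal regions the usual CTCF consensus did not follow. It was found in 73 mostly masked regions, 5.62%, against 8.04% of the others, an odds ratio of 0.680 (0.536 to 0.863). Against mostly masked tiles, which held it in 0.0202%, it was far more frequent. The log2 odds ratio to those tiles was 8.20 (7.81 to 8.59), higher than the 6.11 (5.93 to 6.29) of the B2 form. Either form was present in 33.0% (30.5 to 35.6) against 10.3%. The strongest mostly masked region with the usual form in masked bases belonged to the largest sequence group too, had a signal of 12.1, and lay in an intron 5.15 kb from the start of 2610028H24Rik. Its sequence, with the match in capitals, can be set beside the B2 forms above.
2610028H24Rik, chr10:76455427-76455498, forward strand: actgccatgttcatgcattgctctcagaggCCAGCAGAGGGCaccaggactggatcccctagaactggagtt

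**Figure D4:**
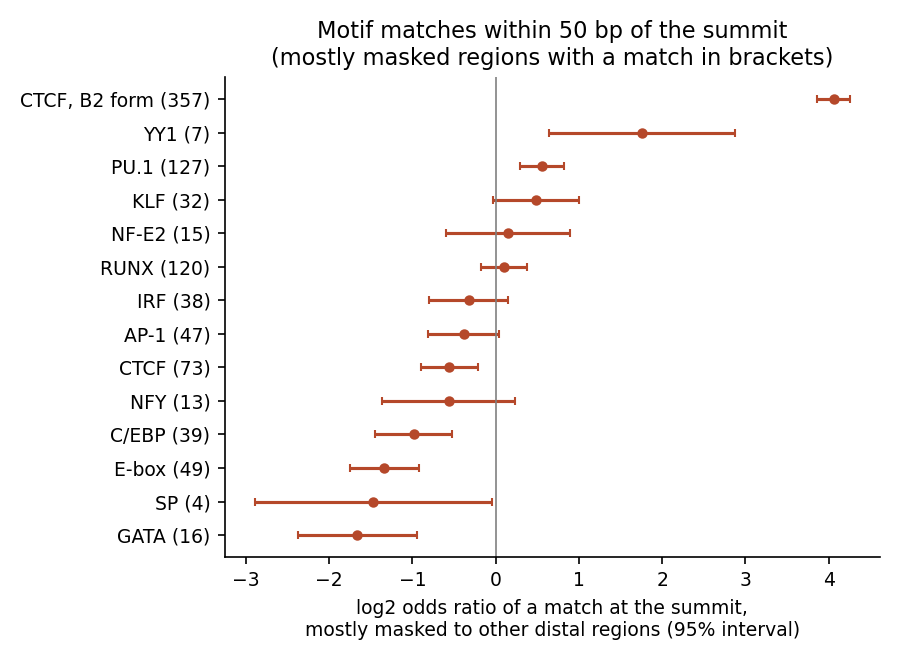
Log2 odds ratio (horizontal axis) of a motif match within 50 bp of the summit, mostly masked to other distal regions, with 95% intervals. Each row is a motif found in at least 4 mostly masked regions, whose number is in brackets. The B2 form of CTCF stands far to the right at 357 regions, and GATA lies lowest with 16.

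PU.1 matches were also more frequent. The consensus was matched in 9.77% against 6.86% (odds ratio 1.47, 1.22 to 1.77), in masked bases in 80.3% of 127 regions. Of these 127 regions 79 belonged to the PU.1 group. The share was 0.563% in the largest group and 6.02% in the 714 regions of no group, both below that of the other distal regions. YY1, a zinc-finger protein with sites in some promoters and retroelements, had 7 matches, 0.538% against 0.159%. Its odds ratio was 3.39 (1.56 to 7.36), but the interval held 1 under several alternatives. With masking measured around the summit it was 1.07 (0.338 to 3.39), in the series' IDR-thresholded list 2.35 (0.9504 to 5.80), without replicate 1 3.595 (0.863 to 14.97), and among regions with a masked stretch of at least 100 bp 0.646 (0.0400 to 10.4). The PU.1 matches were less central than those of CTCF, with 42.5% within 20 bp of the summit, where an even spread gives 43.6%. In the other distal regions 50.8% of the PU.1 matches were as close.

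GATA and E-box matches were fewer. AGATAAG, the consensus of GATA factors, which drive erythroid and megakaryocytic genes, was found in 16 regions, 1.23% against 3.79% (odds ratio 0.316, 0.193 to 0.519). That is also the level of mostly masked tiles, 1.23%. In the own list of replicate 2 alone the GATA ratio was 0.594 (0.306 to 1.15). The E-box CAGCTG had 3.77% against 9% (0.396, 0.297 to 0.528), and TTGCNNAA of C/EBP, a granulocyte-monocyte factor family, had 3.00% against 5.77% (0.505, 0.367 to 0.696). For C/EBP the own lists gave 0.674 (0.447 to 1.02) in replicate 1 and 0.885 (0.556 to 1.41) in replicate 2, so the difference did not hold in either library alone. The GC box GGGGCGGGG of SP proteins, in 4 regions, also had an interval below 1 (0.361, 0.135 to 0.969).

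For 8 of the 16 motifs the interval held 1. AACCACA of RUNX factors, regulators of blood stem cells, was matched in 9.23% against 8.68% (1.07, 0.884 to 1.29), well above the 2.88% of mostly masked tiles. Its interval lay above 1 at masking thresholds of 25% (1.09, 1.001 to 1.19), 75% (1.66, 1.12 to 2.46) and 90% (2.30, 1.01 to 5.21) and against wholly unmasked regions (1.35, 1.10 to 1.65). It also did with a masked stretch of at least 100 bp required, an alternative chosen after seeing the data (1.66, 1.26 to 2.17). NF-E2 (1.15% against 1.04%) and KLF (2.46% against 1.77%) were among the 8. The strongest mostly masked regions with RUNX and GATA matches in masked bases are shown with the match in capitals, for comparison with the PU.1 group.
RUNX, nearest start Pla2g4a, chr1:148808894-148808960, forward strand: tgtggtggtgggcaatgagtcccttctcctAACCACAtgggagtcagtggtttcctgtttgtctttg
GATA, nearest start Tnfrsf8, chr4:145361226-145361292, forward strand: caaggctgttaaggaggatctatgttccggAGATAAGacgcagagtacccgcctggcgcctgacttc

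The first of these belonged to the PU.1 group, was the ninth strongest of the 1300 and had 16.5 in replicate 1 and 16.6 in replicate 2. The second, in no group, had 9.73 and 11.1.

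Short marks of B2 elements were more frequent than in other distal regions and than in mostly masked tiles. The 9 letters GATGGCTCA from the start of B2 were found within 100 bp of the summit in 7% against 0.466%, and ACCACATGG from its body in 3.85% against 0.508%. Mostly masked tiles held them within 100 bp of their centres in 2.35% and 1.78%, other tiles in 0.870% and 0.417%. Part of the difference to the other distal regions therefore follows from the rule. AATCCCAGC of B1 had 1.85% against 0.363%, but was less frequent than in mostly masked tiles, 3.73%, with a log2 odds ratio of −1.04 (−1.62 to −0.46). A second B1 mark had 1.08% against 0.851%, and the mark of ID elements 0.154% against 0.159%. Of the reference elements that RefSeq names, a B1 element (B1_Mus2) aligned over at least 50 bp with 16 of the 1300 (1.23%). It aligned with 39 of the other distal regions (0.0777%). Bc1, the gene from which ID elements derive, aligned with 3 (0.231%) and 13 (0.0259%). The largest group had 42 regions with the first B2 mark and 8 with the B1 mark.

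Both large groups behaved like the rest of the mostly masked regions in signal. The median was 7.24 in the largest group and 7.05 in the PU.1 group, and 7.42 in the 714 regions of no group. Their widths differed: 246 bp, 331 bp and 288 bp. The largest group met the own list of replicate 1 in 43.9% and that of replicate 2 in 21.1% (17.0 to 25.7), and the PU.1 group in 42.6% and 34.8% (26.9 to 43.2). Among other distal regions, 184 aligned with a region of the largest group and 100 with one of the PU.1 group.

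Regions with a B2-form site were weaker when mostly masked. The 357 had a median signal of 7.42 (7.05 to 7.77) and a median width of 252 bp. The 1114 other distal regions with such a site had 9.01 (8.87 to 9.17) and 344.5 bp. In the own list of replicate 2 the shares were 21.6% and 44.3%.

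Most sites of the B2 form in masked sequence lay in no region of the list. Whether short reads could be placed at the sites outside it was not tested. Over the distal part of chromosomes 1 to 19 there were 50951 matches in masked bases, and 828 (1.63%, 1.52 to 1.74) lay inside a region of the list. Of 3950 matches not wholly masked 927 did (23.5%, 22.2 to 24.8). Where the masked stretch around the match was at least 100 bp long, the share was 0.336% (138 of 41108). The usual CTCF form had 19.5% of 1703 and 42.1% of 10019, and 1.62% of 801 in long masked stretches.

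**Figure D5:**
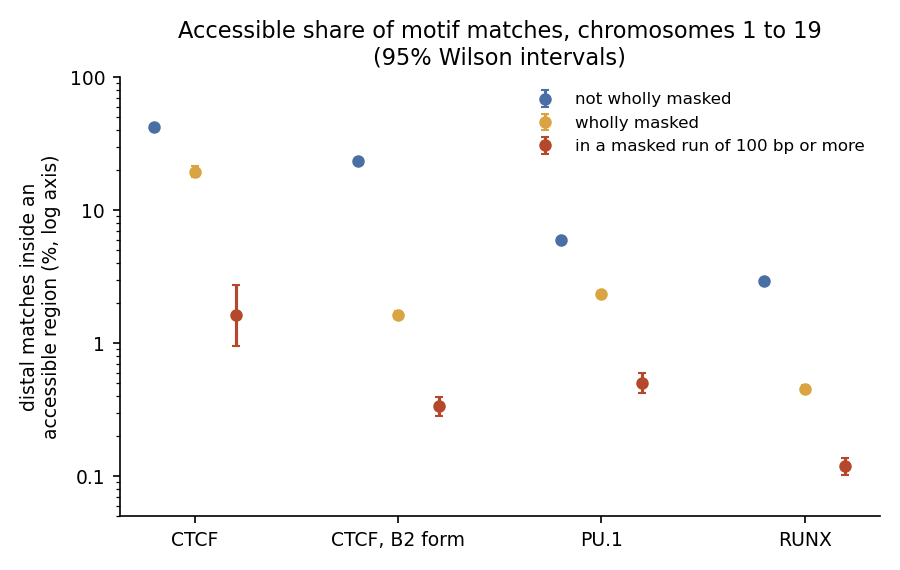
Share of distal motif matches on chromosomes 1 to 19 that lie inside an accessible region (vertical axis, percent, logarithmic), with Wilson 95% intervals. Colours separate matches not wholly masked, wholly masked, and wholly masked within a stretch of at least 100 bp. For each of the 4 motifs the share falls in that order.

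PU.1 and RUNX matches followed the same order in the plot of accessible shares, at lower levels. For PU.1 they were 6.01%, 2.35% and 0.502%, and for RUNX 2.92%, 0.456% and 0.119%. The region of the largest group with the most alignments had 8475 distal copies by the same alignment rule. A summit lay inside 2.37% (1.76 to 3.17) of the 1816 copies with the B2-form site and inside 0.405% (0.279 to 0.589) of the 6659 without. For the PU.1 group 1.20% (0.787 to 1.83) of 1748 copies with the PU.1 site held a summit, and 0.406% (0.206 to 0.799) of 1970 without. These copies were chosen after seeing the data and the shares are given with no test.

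Short stretches of sequence were unique at most of the regions. Stretches of 36 bp in the 50 bp each side of the summit were all unique on chromosomes 1 to 19, X and Y in 83.1% of the mostly masked regions. Some stretch was repeated in 16.9% (14.98 to 19.1) against 3.44% of the other distal regions, an odds ratio of 5.72 (4.91 to 6.67). With stretches of 50 bp the shares were 4.15% and 2.24%. Most of the window was repeated in 2.92% and 1.60%. The 220 regions with a repeated stretch had a median signal of 7.38 and the 1080 without 7.42, and 40% and 45.3% met the own list of replicate 1. In replicate 2 the order was the other way, 28.2% (22.3 to 34.6) and 25.7% (23.2 to 28.5). The read length is not given in the sources used here.

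Genes near mostly masked regions were many and each had few. A start lay within 100 kb of 1167 of them, and these had 1087 different nearest genes, of which 1012 had 1 region, 70 had 2 and 5 had 3. The genes with 3 were Tnfrsf21, a death-domain receptor, Cables1, Ybx3, Anxa3, a calcium-dependent membrane-binding protein, and Dcaf5. They had 6 to 15 distal regions in all, so at Dcaf5 3 of 6 were mostly masked and at Anxa3 3 of 15. Signals of these 15 regions were 3.22 to 9.17, and 3 of the 15 met the own list of replicate 1, where 44.4% of all mostly masked and 63.4% of all distal regions did. Of the 70 genes with 2 regions, those with the strongest region were Skint3, Avpr1b, Gm4070, Depdc1b and Kpna7, so their signals of 14.3 to 19.1 come from that choice.

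The listed genes had few mostly masked regions among their distal regions. Of 440 distal regions nearest to the genes of 8 lists, 4 were mostly masked (0.909%, exact 95% interval 0.248 to 2.31), against 2.53% of all distal regions. The stem and progenitor regulators had 2 of 181 (1.10%, 0.134 to 3.93). Erythroid genes had 1 of 31 and megakaryocyte genes 1 of 48. Granulocyte-monocyte genes had 0 of 78, which allows a share of up to 3.85%, taken as 3 counts of the total where the count is 0 (exact upper bound 4.62%). The B cell genes (0 of 17), T and NK cell genes (0 of 30), genes of other tissues (0 of 26) and genes that silence retroelements (0 of 29) had none, with limits by the same 3 counts of 17.6%, 10%, 11.5% and 10.3%.

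All 4 belonged to one of the large sequence groups, which held 355 and 141 of the 1300. From 4 regions no share can be read. The 4 are printed because they lie nearest to known blood genes. Matches are in capitals, and the region of Tfrc, with none of those 2 motifs, is shown around its summit. Only the region of Tfrc met both own lists.
Cd34, chr1:194985967-194986034, forward strand: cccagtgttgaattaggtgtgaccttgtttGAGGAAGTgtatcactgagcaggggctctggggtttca
Erg, chr16:95615724-95615795, forward strand: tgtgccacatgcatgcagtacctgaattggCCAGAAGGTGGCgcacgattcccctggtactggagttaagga
Itga2b, chr11:102487116-102487187, forward strand: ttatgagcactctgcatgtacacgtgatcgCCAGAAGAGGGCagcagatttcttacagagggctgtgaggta
Tfrc, chr16:32614196-32614256, forward strand: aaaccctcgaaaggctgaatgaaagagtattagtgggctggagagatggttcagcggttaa

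Cd34 encodes a sialomucin that marks blood stem and progenitor cells. Its region lay 47.1 kb downstream of the start, with a signal of 5.75 in the list of both replicates and 5.36 in replicate 1, and it met no ranked region of replicate 2. The site is that of the PU.1 group. Erg, an ETS factor of blood stem cells, had a region 29.2 kb upstream with a B2-form site, a signal of 6.31, 5.44 in replicate 1 and no ranked region in replicate 2. The region 17.3 kb upstream of Itga2b, the integrin subunit of platelets, lay in an intron of Gpatch8 and had 6.22 and 6.69. The region of Tfrc, the transferrin receptor, lay in its own intron at 4.98 kb from the start and had 7.44 in replicate 1 and 8.05 in replicate 2. Neither the Cd34 nor the Erg region was found in replicate 2.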

How the data were processed

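ATAC-seq peak lists of 2 libraries of mouse common myeloid progenitors were used. The authors deposited peaks with a signal and a −log10 p-value per peak, on mm10 per the labels. The sources used here do not give the aligner, the peak caller, the transposase shift or the scale of the signal. The lists hold no counts, so depth per library is unknown. Peaks of the conservative IDR-thresholded list on chromosomes 1 to 19 (99669 of 102186) were merged where they overlapped, keeping the strongest summit.

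Masking was read from the lower case of the RefSeq GRCm38 sequence, with no masking tool stated. Motifs were whole matches on both strands, CTCF by its consensus and by its B2 form. In tiles they were counted within the same distance of the centre as of a summit. Sequence groups came from blastn 2.17.0+, with windows of 100 bp each side of the summit. Recurrence was tested with Fisher's exact test over 4 comparisons, with regions as units. Python 3.11.15, scipy 1.17.1 and statsmodels 0.14.6 were used, and calculations were tested on simulated data.

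Named were the 10 strongest regions, the 10 genes with the most (ties by strongest signal), regions nearest to listed genes, and the strongest of the 6 largest groups and with CTCF, PU.1, RUNX or GATA matches. Of the 10 strongest, 1 is not reported here by name. Members, lists and motifs were chosen with earlier results of these data known. Alternatives were other masking thresholds, peak lists, comparison sets, single libraries, windows and pooling over deciles of width or signal.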

Additional observations from a re-analysis of the deposited data

How the results depend on the processing

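No paired analysis was possible because the 2 replicates form 1 group. The 258 alternatives include those of single motifs. Among those of the main results 87 kept the result, by a value inside the main interval, a similar count or the same call. In 51 the size changed without a turn of direction, in 7 the call was lost and in 1 the direction turned. Values of those that changed are given here, and the cause was not tested. The share of mostly masked regions was 14.1%, 0.414% and 0.0758% with over 25%, 75% and 90% required, 3.23% around the summit, 3.57% in the replicated list, 1.88% in the stronger 50% and 0.874% with a masked stretch of 100 bp. The log2 signal ratio was −0.033, −0.26 and −0.25 at the 3 thresholds, −0.10 around the summit, −0.011 against wholly unmasked regions, −0.19 in the replicated list and −0.084 in the stronger 50%, and its sign turned to 0.065 within deciles of width. The log2 width ratio was −0.29, −0.87 and −0.83 at the thresholds, −0.51 around the summit, −0.35 against wholly unmasked regions, −0.56 in the replicated list, −0.76 in the stronger 50% and −0.46 with the stretch. Motifs above 1 numbered 5 at 25% and against wholly unmasked regions. Motifs below 1 numbered 2 at 75%, 0 at 90% and 3 with the stretch. The odds ratio of repeated stretches was 2.38, 12.6 and 37.0 at the thresholds, 8.14 with the masked stretch, 1.89 with 50-mers and 63.7 with 16-mers. Nearest genes numbered 4727, 189 and 32 at the thresholds, 2570 in the replicated list, 423 in the stronger 50% and 386 with the stretch. At 85% identity 38 regions were linked.

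Recurrence of replicate 1 had an odds ratio of 0.674 at 90% (Fisher's exact test, adjusted p = 0.542), and that of replicate 2 0.494 at 75% (adjusted p = 0.0885) and 0.586 at 90% (adjusted p = 0.542). Pooled over deciles of width the ratios were 0.879, 0.888, 0.937 and 0.849. The CTCF ratio turned to 1.32 at 90%, and that of YY1 to 0.646 with the stretch. The B2-form ratio stayed between 5.01 and 19.8 over 14 alternatives. Leaving out 1 replicate gave shares of 1.49% to 1.89%, log2 signal ratios of −0.075 to −0.049, log2 width ratios of −0.71 to −0.63, 2 to 3 motifs below 1, repeat odds ratios of 4.65 to 6.69 and 333 to 559 genes; in these lists the library and the length of the list cannot be told apart. The masked stretch and the 16-mers were chosen after seeing the data. Without counts, depth sets no stated limit.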
